A study of Mus musculus with 12 samples.

Results

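*Trem2*, *Tyrobp*, *Syk*, *Plcg2*, *Inpp5d* and *Cd33* were described in 2 ChIP-seq peak tables of microglia, 1 for Rpb2, a subunit of RNA polymerase II, and 1 for H3K27ac, an acetylated histone mark of active promoters and enhancers. Every peak whose assigned gene is one of these 6 genes was taken, which gave 89 of 26706 Rpb2 peaks and 47 of 55862 H3K27ac peaks. Of the Rpb2 peaks, 51 belonged to *Inpp5d*, 13 to *Cd33*, 10 to *Syk*, 6 to *Trem2*, 5 to *Tyrobp* and 4 to *Plcg2*. Of the H3K27ac peaks, 22 belonged to *Plcg2*, 9 to *Syk*, 7 to *Inpp5d*, 4 each to *Trem2* and *Cd33* and 1 to *Tyrobp*. The microglia came from 2-mo-old C57BL/6J mice that were either WT or Cx3cr1-deficient (KO), with both *Cx3cr1* copies disrupted by eGFP and the WT mice bred as littermates. Cells sorted on CD11b and CD45 from 3 mice of one sex were pooled for each library, so a pool hides the spread between mice. Each mark therefore had 2 WT and 2 KO libraries, 1 labelled female and 1 labelled male in each genotype, and n = 2 pools per genotype holds throughout. The question of the comparison was whether loss of *Cx3cr1* changes polymerase occupancy or acetylation at these genes.

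Trem2 is a lipid-sensing surface receptor of microglia that has no signalling tail of its own and relies on the adaptor Tyrobp (DAP12). Phosphorylated tyrosines of Tyrobp recruit the kinase Syk, which activates the phospholipase Plcg2 among other effectors. The axis also has inhibitors. Inpp5d (SHIP1) removes a phosphate from the membrane lipid made by PI3K. The human sialic acid receptor CD33 recruits phosphatases, and whether mouse Cd33 does so was not examined here. All 6 genes are expressed by myeloid cells, and several of their human counterparts carry risk for Alzheimer's disease.

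The start-site sequences are shown for *Trem2*, for *Inpp5d* and for both start sites of *Syk*, because the start sites differ in their letters. Acetylated peaks described here cover all of them, and the start-site Rpb2 peaks overlap each in part. The *Trem2* Rpb2 peak begins past both marked motifs, and the upstream *Syk* Rpb2 peak ends before the RefSeq start. The sequences run from 250 bases before to 50 bases after the RefSeq start of transcription (build GRCm38.p6, which is mm10). Capitals mark the motifs found on either strand.
*Trem2*, chr17:48346151-48346450, plus strand: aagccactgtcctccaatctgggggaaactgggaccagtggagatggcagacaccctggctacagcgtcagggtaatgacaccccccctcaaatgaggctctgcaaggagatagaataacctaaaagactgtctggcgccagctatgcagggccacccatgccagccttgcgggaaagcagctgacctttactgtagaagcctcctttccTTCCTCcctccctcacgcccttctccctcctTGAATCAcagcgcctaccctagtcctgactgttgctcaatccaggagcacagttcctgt
*Inpp5d*, chr1:87620062-87620361, plus strand: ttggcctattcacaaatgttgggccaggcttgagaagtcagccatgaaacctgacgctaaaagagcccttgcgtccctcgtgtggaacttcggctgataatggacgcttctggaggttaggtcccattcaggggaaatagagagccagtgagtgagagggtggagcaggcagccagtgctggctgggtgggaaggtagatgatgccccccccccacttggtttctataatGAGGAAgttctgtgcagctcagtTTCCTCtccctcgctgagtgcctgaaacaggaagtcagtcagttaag
*Syk*, upstream start, chr13:52583187-52583486, plus strand: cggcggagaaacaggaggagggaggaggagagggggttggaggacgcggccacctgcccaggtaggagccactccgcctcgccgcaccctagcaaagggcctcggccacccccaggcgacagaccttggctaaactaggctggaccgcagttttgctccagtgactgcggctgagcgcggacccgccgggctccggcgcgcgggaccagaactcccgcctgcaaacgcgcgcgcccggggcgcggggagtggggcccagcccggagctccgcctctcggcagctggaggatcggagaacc
*Syk*, downstream start, chr13:52596632-52596931, plus strand: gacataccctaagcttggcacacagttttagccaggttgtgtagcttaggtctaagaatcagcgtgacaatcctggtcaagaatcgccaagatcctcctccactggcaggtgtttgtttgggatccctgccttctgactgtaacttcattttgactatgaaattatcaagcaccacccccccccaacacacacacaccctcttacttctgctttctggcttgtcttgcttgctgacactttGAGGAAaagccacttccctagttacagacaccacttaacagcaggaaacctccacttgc

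Motifs searched were GAGGAA (the core bound by PU.1, the lineage factor of macrophages), TGANTCA (AP-1), CACGTG (an E-box), TATAAA (the TATA box) and the composite element of PU.1 and IRF. RefSeq promoters were found for 5 of the 6 genes, 6 sequences in all. The PU.1 core was present in *Trem2*, *Inpp5d*, *Cd33* and the downstream start of *Syk*, and 28.3% of all 32851 promoters of this length held it. *Inpp5d* had it at 2 places. In *Trem2* a match to TGANTCA, the string searched for AP-1, began 9 bases before the start. The search left the central base open, and that base is A here, so the match is a loose one. With any central base, 7.81% of promoters held a match. *Plcg2* held an E-box 20 bases before its start, as did 7.15% of promoters anywhere in the window. None of the 6 sequences held the TATA box (13.6% of promoters) or the composite element (2.72%). The upstream start of *Syk* held none of the motifs, was 72% G and C and contained 31 CpG dinucleotides. The downstream start was 48% G and C with 2 CpG dinucleotides. A match of letters is a description and does not show that a factor is bound.

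Rpb2 libraries held 11662185 to 44332626 reads, the KO female being the deepest, and 11.2 to 15.1% of reads lay in peaks. H3K27ac libraries held 10395804 to 21134403 reads. The library labelled WT female had 15.9% of its reads in H3K27ac peaks, against 61.1 to 65.3% in the other 3, so the acetylation results are also given without it. Reads at 3 Rpb2 peaks of Y-linked genes numbered 136 in the WT library labelled female and 214 in the WT male. The KO female had 0 and the KO male 266. The 136 reads go against the female label. For Rpb2 the sex of the pools may thus differ between genotypes, and its part in the differences was not tested. Levels are given in CPM, in which every library is brought to the same number of reads in peaks after TMM normalization. All 8 microglial markers examined had peaks for both marks, with a summed Rpb2 level of 9807 to 11076 CPM. None of 21 markers of neurons, astrocytes, endothelium, neutrophils, monocytes and lymphocytes had an Rpb2 peak, and 1 of 4 oligodendrocyte markers did, at 5.44 to 25.7 CPM. Some of them had acetylated peaks, at no more than 81.0 CPM for any list. The Rpb2 peak at the *Cx3cr1* start had 369 and 462 reads among WT libraries and 1442 and 623 among KO libraries. It lies upstream of the coding sequence that eGFP interrupts, so it does not check the genotype labels.

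At the start sites, polymerase levels fell into a high and a low set. Levels are compared per kb of peak. For *Tyrobp* the Rpb2 level was 774 and 1108 CPM per kb in WT pools (female, then male, here and below) and 1120 and 1133 in KO pools. *Inpp5d* had 1093 and 995 in WT and 885 and 1137 in KO pools. These were higher than the next gene in every library and stood at the 98.8 and 98.7 percentile of the 10125 Rpb2 peaks within 1000 bp of a start site. *Plcg2* averaged 382 CPM per kb (303 to 453), *Cd33* 338 (233 to 549), *Syk* 239 (214 to 255) and *Trem2* 188 (148 to 246). Each of these 4 overlapped its neighbour in the order across the libraries. *Trem2* stood near the middle of all start-site peaks, at the 57.3 percentile.

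Acetylation over the start sites gave another order, whose difference from that of Rpb2 was not tested. The H3K27ac peak over the start of *Inpp5d* averaged 35.7 CPM per kb (26.0 to 39.9) and that of *Trem2* also 35.7 (28.9 to 40.1), the 99.9 percentile of all 55862 H3K27ac peaks for both. *Tyrobp* followed at 30.3 (24.1 to 34.2), *Cd33* at 22.9 (17.3 to 26.6), *Syk* at 16.3 (14.8 to 19.4) and *Plcg2* at 14.4 (11.6 to 16.2). All neighbours in this order overlapped in range. The WT female pool was lowest for *Inpp5d*, *Trem2*, *Tyrobp* and *Cd33*. *Trem2* was thus last of the 6 genes in Rpb2 at its start and level with *Inpp5d*, the first, in acetylation. The plot of levels by library shows both. A taller *Trem2* Rpb2 peak, centred 1065 bp past the start, lies outside the 1000-bp limit but under the acetylated peak ranked here.

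**Figure D1:**
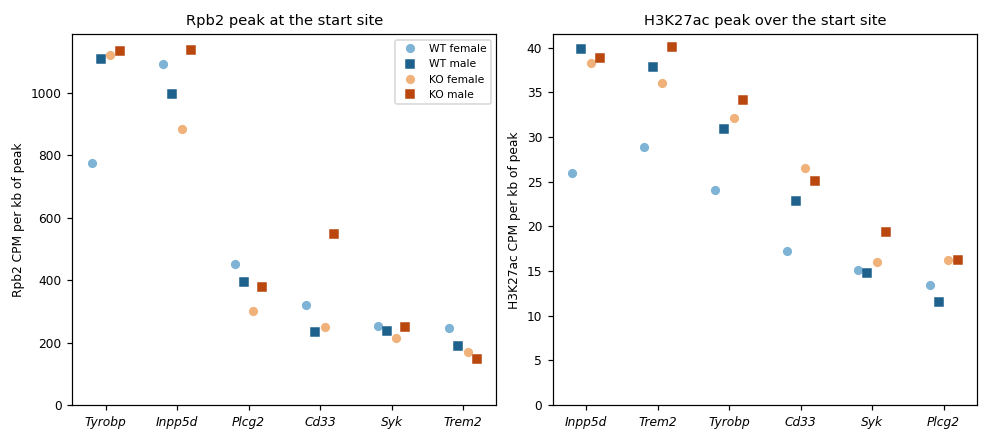
Rpb2 (left) and H3K27ac (right) at the start sites of the 6 genes, in CPM per kb of peak, ordered by mean. Each point is 1 library. *Tyrobp* and *Inpp5d* lie above the other genes in Rpb2, while *Trem2* is last in Rpb2 (148 to 246) and near the top in H3K27ac (28.9 to 40.1).

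Loss of *Cx3cr1* moved no peak of these genes past the threshold. None of the 89 Rpb2 peaks and none of the 42 H3K27ac peaks with enough reads to test passed an adjusted p of 0.05 in edgeR's quasi-likelihood test, which called 0.00749% of all Rpb2 peaks and 0.0% of all H3K27ac peaks. At an unadjusted p under 0.05 there were 10 Rpb2 peaks (11.2%), 7 higher and 3 lower in KO, against 12.2% of all 26702 tested. There were 0 H3K27ac peaks, against 3.76% of all 39055 tested. DESeq2's Wald test called 2 of the 89 Rpb2 peaks, against 3.81% of all Rpb2 peaks (1018), and 0 of the H3K27ac peaks, against 1.45% of all (565). Both KO pools lay above both WT pools at 26 Rpb2 peaks (29.2%, against 25.7% of all) and below them at 13 (14.6%, against 21.7%). For H3K27ac they lay above at 8 of 42 (against 18.2% of all) and below at 4 (9.52%, against 15.1% of all). The median log2 difference, KO over WT, was 0.20 over the Rpb2 peaks and 0.12 over the tested H3K27ac peaks, beside 0.04 and -0.01 over all peaks tested. In these pools, fewer cells bearing a mark and less of it per cell cannot be told apart. Scaling by library totals in place of TMM moves the median of all peaks to 0.37 for Rpb2 and 0.72 for H3K27ac, and changes here are relative to TMM scaling.

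Most Rpb2 peaks of these genes were found by the peak caller in KO pools alone. The KO list alone supplied 55 of 89 (61.8%), the WT list alone 16 (18.0%) and both lists 18 (20.2%). In the whole table the shares were 53.0, 13.7 and 33.3%. The KO female library was also the deepest. The part of depth in the lists was not tested. Measured by reads, the peaks of the KO list alone had a median log2 difference of 0.48, near the 0.51 of all such peaks, and the peaks of both lists -0.06, near the -0.17 of all such peaks. For the WT list alone these medians were -0.69 and -0.89. The 10 Rpb2 peaks with an unadjusted p under 0.05 each came from 1 list alone. The 7 higher in KO were in the KO list, and the 3 lower in the WT list. The *Tyrobp* peak at -21008 bp and the *Syk* peak at 51235 bp were likewise in the KO and the WT list alone. The direction of these peaks went with the list that found them and is no separate support for a difference.

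**Figure D2:**
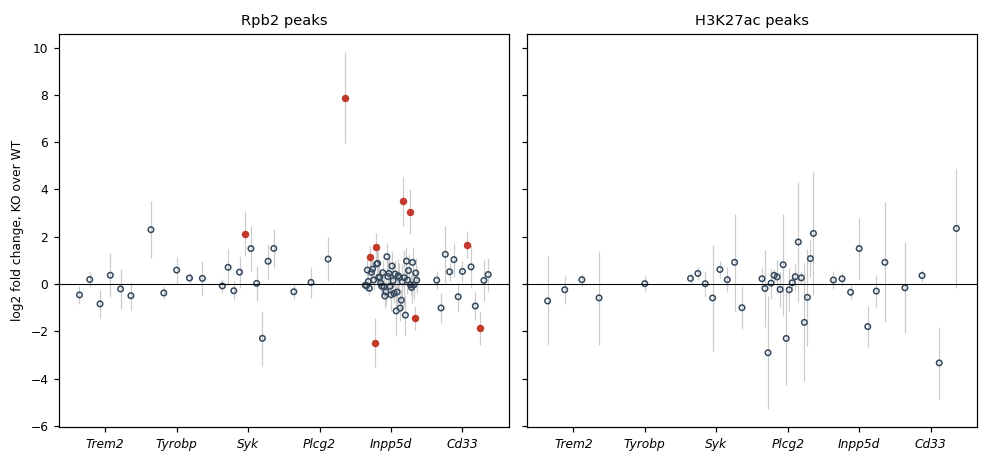
Log2 fold change (KO over WT, n = 2 pools each) of every tested peak of the 6 genes, Rpb2 on the left and H3K27ac on the right, ordered along each gene, with SE as bars. Red points are the 10 Rpb2 peaks with an unadjusted p under 0.05, and none passed the adjusted threshold. The highest point, at 7.88, is a *Plcg2* peak with 0 reads in both WT pools, whose fitted value depends on the prior count.

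*Trem2*, the receptor, had its tallest Rpb2 peak not at the start but in its first intron. The intron peak (chr17:48347298-48347634, centred 1065 bp past the start) held 75.4 and 107 CPM in WT and 123 and 84.6 in KO pools. The start-site peak (centred 158 bp past the start, in exon 1) held 63.0 and 48.7 CPM in WT and 43.3 and 37.8 in KO pools. Per kb, the intron peak was 1.67 to 2.17 times the start-site peak in 3 libraries and 0.912 times in the WT female. At the start site the KO pools were each lower than either WT pool, a log2 difference of -0.46 ± 0.38 (SE, adjusted p = 0.652). At the intron peak the genotypes overlapped, with 0.20 ± 0.30 (adjusted p = 0.825). The other 4 Rpb2 peaks lay farther into the gene, and that in exon 2 had the lowest p of the 6, with 17.1 and 42.8 CPM in WT and 16.5 and 17.2 in KO (adjusted p = 0.592). A single acetylated peak of 4586 bp (chr17:48345158-48349744) covered the start, the intron peak and 2 further Rpb2 peaks. It held 133 and 174 CPM in WT and 165 and 184 in KO pools, which overlap (log2 difference 0.19 ± 0.26, SE). The difference was 0.0099 without the WT female, and without the WT male 0.40 (adjusted p = 0.121). The remaining 3 acetylated peaks were weak, none above 12.4 CPM in any library.

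*Tyrobp*, the adaptor, shared the top Rpb2 level at its start with *Inpp5d*, and that peak held 171 and 245 CPM in WT and 248 and 250 in KO pools. The KO pools lay above the WT pools by a narrow margin (0.26 ± 0.22, adjusted p = 0.664), and the WT female was the pool that stood apart. The only H3K27ac peak that the table assigns to *Tyrobp* is intergenic, 3437 bp wide and centred at -19484 bp (chr7:30392586-30396023). No gene of GENCODE M21 overlaps it, and *Tyrobp* is the nearest on its right at 17737 bp. It held 78.2 and 154 CPM in WT and 103 and 133 in KO pools, the KO values lying between those of WT (0.02 ± 0.33, adjusted p = 0.9998). Without the WT female the difference was -0.38 (adjusted p = 0.180), and without the WT male 0.59 (adjusted p = 0.0820). A pair of Rpb2 peaks lies inside it. The larger, at -19338 bp, held 110 and 126 CPM in WT and 103 and 78.0 in KO pools, the KO below the WT (-0.37 ± 0.27, adjusted p = 0.604). The smaller, at -21008 bp, had 0 and 5 reads among WT libraries and 42 and 25 among KO libraries (2.30 ± 1.21, adjusted p = 0.469). This smaller peak passed the read filter through the KO libraries only, so its direction is no separate support for a difference. Its difference was -0.65 with loess offsets, and it was called without the WT male, which leaves a WT library of 0 reads (adjusted p = 0.0282). The acetylation over the *Tyrobp* start itself is in a peak of 13980 bp (chr7:30410663-30424643) that spans *Tyrobp*, *Hcst* and the start of *Nfkbid*. The table assigns it to *Hcst*, which encodes the adaptor DAP10 and lies beside *Tyrobp* on the other strand. That peak held 337 and 433 CPM in WT and 449 and 478 in KO pools, KO above WT (0.27 ± 0.26, adjusted p = 0.9998). A gene sum of *Tyrobp* acetylation therefore reflects the intergenic peak and not its start.

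*Syk*, the kinase, showed polymerase at both of its start sites, which RefSeq places 13445 bp apart. The upstream peak, at the G and C rich start, held 73.9 and 68.5 CPM in WT and 62.2 and 72.9 in KO pools. The downstream peak, at the start with the PU.1 core, held 61.4 and 56.0 in WT and 33.5 and 64.0 in KO pools. Per kb the 2 were close in 3 libraries, and in the KO female the downstream peak had 132 against 214 CPM per kb. Each start had its own acetylated peak. The downstream one (chr13:52595104-52598614) held 57.9 and 48.3 CPM in WT and 79.0 and 65.7 in KO pools, KO above WT (0.45 ± 0.26, adjusted p = 0.9998). The upstream one held 64.6 and 63.1 in WT and 68.5 and 82.5 in KO pools, again KO above WT (0.24 ± 0.25, adjusted p = 0.9998). Without the WT female these differences were 0.59 at the downstream and 0.26 at the upstream start (adjusted p = 0.162 and 0.582). Of the 10 Rpb2 peaks, 8 were in the KO list alone (80%, against 53.0% of all Rpb2 peaks, the KO female library being the deepest). The lowest p belonged to an intron peak 31813 bp past the downstream start, where WT libraries had 2 and 7 reads and KO libraries 78 and 35, or 1.56 and 4.61 against 14.2 and 13.7 CPM (2.14 ± 0.94, unadjusted p = 0.0426, adjusted p = 0.390). Its log2 difference was 0.94 with loess offsets and 1.57 to 3.13 on leaving out 1 library, the higher value without the WT male. This intron peak passed the read filter through the KO libraries only, so its direction is no separate support for a difference. Another, at 51235 bp in the 3' UTR, moved the other way, with 18.7 and 19.8 CPM in WT and 7.27 and 0 in KO pools (adjusted p = 0.447).

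*Plcg2*, the phospholipase, was the reverse of *Inpp5d* in makeup, with many acetylated peaks and few Rpb2 peaks. Its 22 acetylated peaks ran from -16.3 to 79.3 kb around the start, 18 of them with enough reads to test. The widest spanned 10451 bp in intron 2 (chr8:117535337-117545788) and held 125 and 188 CPM in WT and 188 and 189 in KO pools (0.27 ± 0.27, adjusted p = 0.9998). Without the WT female its difference was 0.0052, and without the WT male 0.59, which was called (adjusted p = 0.0143). The peak over the start held 72.3 and 62.1 CPM in WT and 86.9 and 87.0 in KO pools, KO above WT (0.37 ± 0.25, adjusted p = 0.9998, and 0.49 with adjusted p = 0.202 without the WT female). The Rpb2 peak at the start went the other way in rank, with 101 and 88.2 CPM in WT and 67.5 and 84.2 in KO pools (-0.32 ± 0.29, adjusted p = 0.679). Of its 3 other Rpb2 peaks, that at 72300 bp in intron 7 had the lowest p of all 89. It held 0 reads in both WT libraries and 67 and 24 reads in the KO libraries. It was in the KO list alone and passed the read filter through the KO libraries only, so its direction was fixed by selection. With 3 reads over both WT libraries as the floor, it was at least 10.6-fold higher in KO. The quasi-likelihood test gave an unadjusted p of 0.00165 and an adjusted p of 0.199, and DESeq2 an adjusted p of 0.0197. No acetylated peak overlapped it.

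*Inpp5d*, the lipid phosphatase, had the broadest domain. Its main acetylated peak was 45172 bp wide (chr1:87618963-87664135), ranking 5 by width and 2 by CPM among all 55862 H3K27ac peaks. It held 1174 and 1801 CPM in WT and 1730 and 1753 in KO pools. Its share of all reads in peaks was 0.118% for the WT female, against 0.167 to 0.172% for the other 3 libraries. Apart from the WT female, the pools lay within a narrow range, and the log2 difference was 0.23 ± 0.30 (adjusted p = 0.9998). It was -0.046 without the WT female, and 0.57 without the WT male, which was called (adjusted p = 7.45e-07). The *Inpp5d* acetylated peak with the lowest p lay in intron 6, at 59845 bp, and went the other way, with 23.6 and 5.09 CPM in WT and 6.73 and 1.39 in KO pools (-1.79 ± 0.87, unadjusted p = 0.0664, adjusted p = 0.9998). The genotypes overlapped there, and the difference was -0.32 without the WT female and -2.53 without the WT male, which was called (adjusted p = 0.0377). Inside the main peak of 45172 bp lay the centres of 32 of the 51 Rpb2 peaks, and the other 19 continued to 66892 bp past the start, in a gene 100.2 kb long. Of the 51, 50 were intronic. The median level over WT was 91.4 CPM per kb inside the acetylated peak and 62.1 beyond it. The start-site peak (237 ± 15.7 CPM in WT and 230 ± 40.5 in KO, SD, n = 2) was the tallest, followed by a peak at 910 bp with 138 and 172 CPM in WT and 154 and 142 in KO pools. At both peaks the genotypes overlapped.

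Several intronic *Inpp5d* peaks had low counts and wide spread. An unadjusted p under 0.05 was seen at 6 of the 51 (11.8%, against 12.2% of all Rpb2 peaks), 4 higher and 2 lower in KO. The lowest p was at 51910 bp, with 5.44 and 0 CPM in WT and 18.7 and 41.0 in KO pools (3.49 ± 1.03, unadjusted p = 0.00519, adjusted p = 0.227). Its log2 difference was 2.15 with loess offsets and 2.43 without the WT male. Without the WT female, which leaves a WT library of 0 reads, it was called (adjusted p = 0.000877). A peak at 57444 bp had 2 and 4 reads among WT libraries and 73 and 59 among KO libraries (adjusted p = 0.241). DESeq2 called this peak, at an adjusted p of 0.0406. The peaks at 51910 and 57444 bp both passed the read filter through the KO libraries only. Their direction is therefore no separate support for a difference. Peaks at 7859 and 14472 bp were higher in both KO pools as well, and those at 13407 and 63918 bp lower. At 63918 bp the levels were 62.2 and 34.2 CPM in WT and 20.9 and 14.4 in KO pools (-1.43 ± 0.50, adjusted p = 0.289). Of the 51 peaks, 15 had both KO pools above both WT pools (29.4%, against 25.7% of all Rpb2 peaks), 6 had them below (11.8%, against 21.7%), and 30 overlapped.

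*Cd33*, the sialic acid receptor, had 1 broad acetylated peak of 6005 bp over its start (chr7:43529278-43535283). That peak held 104 and 137 CPM in WT and 160 and 150 in KO pools, KO above WT (0.36 ± 0.25, adjusted p = 0.9998). The difference was 0.18 without the WT female (adjusted p = 0.577), and without the WT male 0.58, which was called (adjusted p = 0.0302). Its start-site Rpb2 peak held 80.1 and 58.6 CPM in WT and 62.6 in the KO female, while the KO male stood apart at 138. The genotypes overlapped, and the log2 difference of 0.52 ± 0.38 (adjusted p = 0.601) became -0.15 without the KO male. The RefSeq gene runs from 43533171 down to 43527456 on the minus strand of chromosome 7. Of the other 12 Rpb2 peaks, 9 lay outside it, on both sides, 2 in its introns and 1 in its 3' UTR. One at -11317 bp covers the start of a longer GENCODE M21 transcript of *Cd33* and held 54.4 and 46.1 CPM in WT and 70.2 and 41.7 in KO pools. It lies in an acetylated peak that the table assigns to *Zfp658*. The lowest p was at 7083 bp, past the 3' end of the RefSeq gene, with 18.7 and 7.90 CPM in WT and 30.7 and 53.8 in KO pools (1.67 ± 0.59, unadjusted p = 0.0143, adjusted p = 0.289). It was 2.39 and called without the WT female (adjusted p = 0.0228). Farther on, at 10421 bp, the KO pools were lower, with 27 and 45 reads among WT libraries and 54 and 10 among the deeper KO libraries (-1.84 ± 0.71, adjusted p = 0.335). The acetylated peak at the 3' end had the lowest p of the H3K27ac peaks, on few reads, 14 and 44 in WT libraries and 9 and 5 in KO libraries (unadjusted p = 0.0533, adjusted p = 0.9998, and adjusted p = 0.163 without the WT female).

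**Figure D3:**
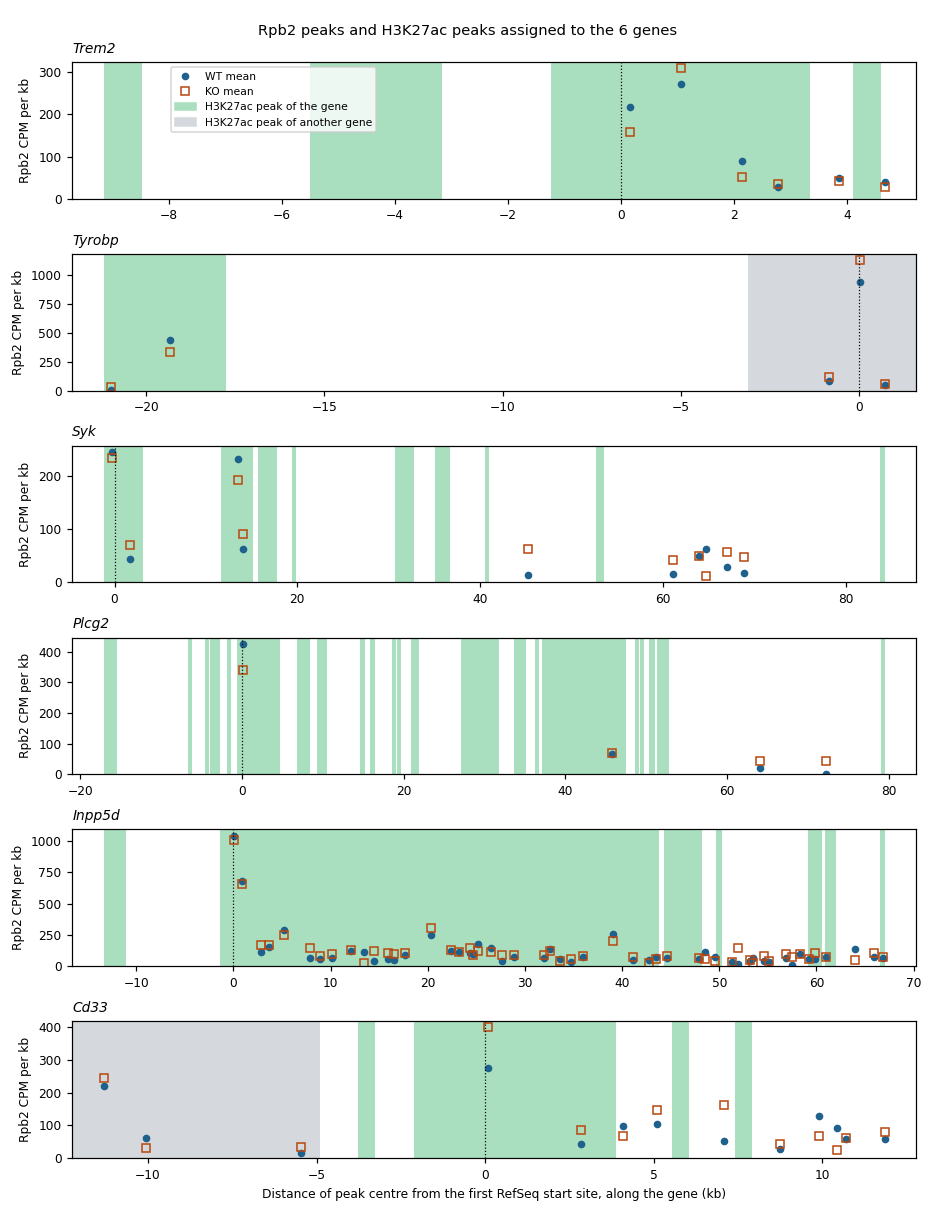
Rpb2 peaks (filled points WT, open squares KO, mean CPM per kb of n = 2 pools each) and H3K27ac peaks (green spans) against distance from the first RefSeq start site of each gene, in kb along the gene. Grey spans are H3K27ac peaks assigned to another gene. *Inpp5d* has 51 Rpb2 peaks under and beyond a 45.2-kb acetylated peak, *Plcg2* 4 among 22 acetylated peaks, and the *Tyrobp* start lies under a peak of *Hcst*.

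Over the whole table, 76.6% of Rpb2 peaks overlapped an H3K27ac peak by at least 1 base. Of the 89 peaks here 60 (67.4%) did. The share was 5 of 5 for *Tyrobp*, 5 of 6 for *Trem2*, 39 of 51 for *Inpp5d*, 2 of 4 for *Plcg2*, 4 of 10 for *Syk* and 5 of 13 for *Cd33*. The *Syk* and *Cd33* peaks without acetylation were those in the distal gene body and past the 3' end.

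With all peaks of a gene summed, no Rpb2 difference between genotypes was called. Approximate 95% intervals of the log2 difference ran from -0.46 to 0.56 for *Plcg2*, the widest, and from -0.006 to 0.33 for *Inpp5d*, the narrowest. *Inpp5d* had 1698 and 1577 CPM in WT and 1711 and 1951 in KO pools (0.16 ± 0.09, unadjusted p = 0.0735), and ranked 9 of 10205 genes by mean CPM. *Cd33* had 356 and 265 CPM in WT and 377 and 390 in KO pools (0.31 ± 0.17, adjusted p = 0.516). *Tyrobp* had 305 and 396 in WT and 409 and 398 in KO pools (0.20 ± 0.16, adjusted p = 0.690). In these 3 genes both KO pools lay above both WT pools, as in 22.4% of all genes. The margin in *Tyrobp* was 398 against 396. *Syk* (0.24 ± 0.21), *Plcg2* (0.05 ± 0.26) and *Trem2* (-0.07 ± 0.20) overlapped between genotypes. None of the 6 gene sums was called, and none had an unadjusted p under 0.05, beside 0.0% of all genes called and 10.8% with such a p.

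Summed acetylation was 1180 and 1909 CPM in WT and 1780 and 1799 in KO pools for *Inpp5d*, which ranked 4 of 14108 genes by mean CPM (0.21 ± 0.33, adjusted p = 0.998). The WT female was lowest and the WT male highest. *Syk* had 163 and 168 CPM in WT and 198 and 213 in KO pools (0.31 ± 0.22, adjusted p = 0.998). *Cd33* had 103 and 150 in WT and 159 and 156 in KO pools (0.32 ± 0.25, adjusted p = 0.998). In *Syk* and *Cd33* both KO pools lay above both WT pools, as in 15.2% of all genes. *Plcg2* (0.19 ± 0.26), *Trem2* (0.15 ± 0.25) and *Tyrobp* (0.02 ± 0.34) overlapped. None of the 6 sums had an unadjusted p under 0.05, as 4.51% of all genes did, and none was called, as was the case for 0.0% of all genes.

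The acetylation differences depended on which library was left out. Without the KO female the log2 differences of the 6 sums ran from 0.20 to 0.37, and without the KO male from -0.18 to 0.33. Without the weakly enriched WT female, the log2 difference was 0.30 ± 0.13 for *Syk* (SE, adjusted p = 0.223), 0.08 for *Cd33*, 0.01 for *Plcg2*, -0.06 for *Trem2*, -0.09 for *Inpp5d* and -0.42 for *Tyrobp* (adjusted p = 0.129), and 0 of 6 sums were called. Without the WT male, leaving that WT female alone against the KO pools, all 6 were positive, from 0.33 to 0.67, and 5 were called, *Syk* being the exception. In that fit 20.3% of all 14108 gene sums were called (2866), and in the fit without the WT female 3.86% (544). Among the 42 acetylated peaks, 1 was called without the WT female, against 1.74% of all (678), and 4 without the WT male, against 3.87% of all (1511). A lone library is assumed in such fits to vary like the other pools. *Syk* stayed between 0.26 and 0.37 whichever library was left out.

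**Figure D4:**
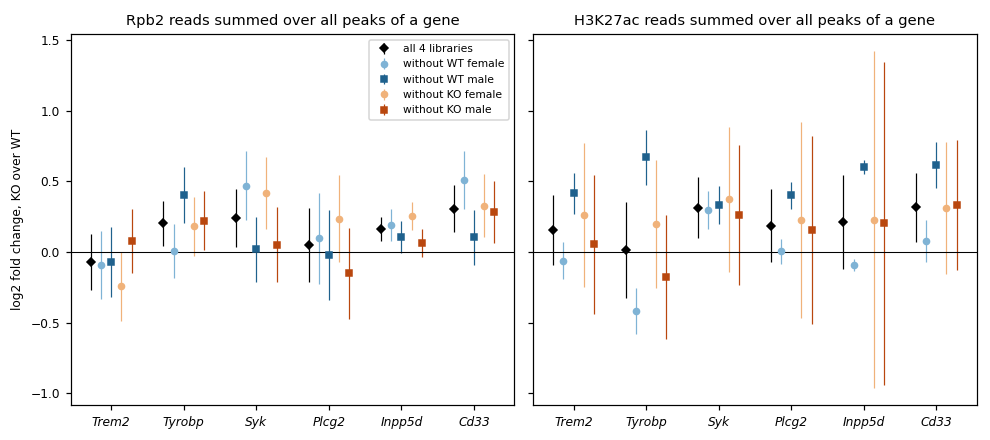
Log2 fold change (KO over WT) of reads summed over all peaks of a gene, with SE as bars, from all 4 libraries and with each library left out, Rpb2 on the left and H3K27ac on the right. The 6 acetylation sums run from -0.42 to 0.30 without the WT female and from 0.33 to 0.67 without the WT male.

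For Rpb2 the dependence was on single peaks. Without the library labelled WT female, whose Y-linked reads go against its label, 9 member peaks were called, 7 higher and 2 lower in KO, and without the WT male 5, 4 higher and 1 lower. Over all Rpb2 peaks these fits called 8.26% (2206) and 7.33% (1956). In both fits the *Plcg2* peak at 72300 bp and the *Inpp5d* peak at 57444 bp were among them. Both peaks had passed the read filter through the KO libraries only. Without a KO library 0 were called. The 6 Rpb2 gene sums gave 0 calls with any library left out, and ranged from -0.24 to 0.51.

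A list of 70 other genes of the pathway held no call either. For Rpb2, 55 had sums to test and 0 passed, with 3 at an unadjusted p under 0.05, all higher in KO, where 10.8% of all genes had such a p. These were *Pik3cg*, a PI3K catalytic subunit (225 and 238 CPM in WT, 283 and 360 in KO, adjusted p = 0.337), *Ptpn6*, the phosphatase SHP-1 (194 and 199 in WT, 258 and 272 in KO, adjusted p = 0.398), and *Fcer1g*, an ITAM adaptor like Tyrobp (121 and 135 in WT, 175 and 188 in KO, adjusted p = 0.424). The list's median log2 difference was 0.09, beside 0.02 over all genes, with 35 positive and 20 negative. For H3K27ac, 64 had sums to test and 0 passed. An unadjusted p under 0.05 was seen at 3, all lower in KO, where 4.51% of all genes had such a p. *Itpr1*, the calcium channel opened by the product of phospholipase C, had 36.2 and 29.5 CPM in WT and 17.7 in each KO pool (adjusted p = 0.998). *Trem3*, a receptor gene of the Trem locus, rested on 1 peak of 0.5 kb with few reads. It had 26 and 13 reads in WT and 0 in both KO libraries, at least 34.5-fold lower with 3 reads over both as the floor (adjusted p = 0.998). This peak passed the read filter through the WT libraries only, so its direction was fixed by selection. *Vav3*, an exchange factor, had 199 reads for the WT female against 2, 6 and 34 for the other 3 libraries, so that 1 WT library decides its value. The list's median was 0.12, beside -0.03 over all genes, with 48 positive and 16 negative, and its members share the weak WT female library.

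By role, the Src and Tec kinases had positive differences in 6 of 7 genes for both marks, with medians of 0.13 for Rpb2 and 0.18 for H3K27ac. Among the exchange factors and PI3K subunits 6 of 7 were positive for Rpb2 and 7 of 8 for H3K27ac. The inhibitors were split for Rpb2, 6 positive and 9 negative with a median of -0.09, and were 12 positive and 4 negative for H3K27ac. The list as a whole had 35 positive of 55 for Rpb2 and 48 of 64 for H3K27ac, with medians over all genes of 0.02 and -0.03. Medians of the remaining roles ran from -0.19 to 0.46 for Rpb2 and from -0.004 to 0.27 for H3K27ac. A pattern by role was not tested, and the H3K27ac counts share the weak WT female library. No role had a gene that was called.

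The genes most like each member over the 8 ChIP libraries, by the Pearson correlation of log2 CPM of gene sums centred within each mark, are given as a description over 8100 genes with at least 50 reads on average in both marks. The closest were *Zfp719* to *Tyrobp* (r = 0.999), *Mir7681* to *Plcg2* (0.994), *Mtch1* to *Cd33* (0.993), *Plek* to *Inpp5d* (0.992), *Mybph* to *Trem2* (0.977) and *Edrf1* to *Syk* (0.974). From 38 genes for *Syk* to 258 for *Inpp5d* exceeded 0.9, and the libraries share their depth and enrichment.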

How the data were processed

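Microglia of WT and KO mice were assayed by ChIP-seq for Rpb2 and H3K27ac (8 libraries). The 4 input samples were not used here. Bowtie2, HOMER and mm10 are named in the submitters' processing notes. The authors kept reproducible peaks, united the lists of both genotypes, and deposited for each mark raw counts of reads per peak and library, with no scaling per the file headers. The number of unused columns of per-sample values was 0.

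The 6 genes and all lists were chosen with earlier results of these data known. Peaks were taken by assigned gene name. Peaks reaching 10 reads in 2 or more of the 4 libraries, or sums over the peaks of a gene, were fitted with edgeR 4.0.16 (quasi-likelihood test, TMM, genotype alone, Benjamini-Hochberg over all features, R 4.3.3). DESeq2 1.42.0, limma 3.58.1 (loess) and other filters and scalings were alternatives. Distances in the tables matched RefSeq start sites within 6.5 bp at 136 of 136 peaks.

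Named peaks were, per gene and mark, the highest within 1000 bp of a start site, the highest overall and the one with the lowest p. Other peaks named were chosen after their values were seen. An exact permutation test of 2 against 2 pools cannot go below p = 0.333, so p values come from the fits, and they measure the spread between pools of 3 mice. A floor of 3 reads covers counting error only. Figures were drawn with matplotlib 3.10.9 in Python 3.11.15.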

Additional observations from a re-analysis of the deposited data

Results flagged for a closer look

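Values were looked at again where the KO over WT log2 ratio of the pools labelled female and that of the pools labelled male pointed in opposite directions, each beyond its 95% counting interval. Each ratio rests on 1 library per genotype, the difference between the sexes was not tested, and the Rpb2 library labelled WT female carries Y-linked reads.

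For Rpb2, the *Trem2* peak at 1065 bp gave 0.71 in the female and -0.33 in the male pools. The *Inpp5d* start-site peak at 89 bp gave -0.30 in the female and 0.19 in the male pools. The *Cd33* start-site peak at 81 bp gave -0.36 in the female and 1.23 in the male pools.

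For H3K27ac, the female ratios rest on the weakly enriched WT library. The *Tyrobp* gene sum gave 0.47 in the female and -0.25 in the male pools, and its only peak, at -19484 bp, 0.40 and -0.21. The *Inpp5d* gene sum gave 0.59 in the female and -0.086 in the male pools, and its widest peak, centred at 21237 bp, 0.56 and -0.039.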

How the results depend on the processing

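Counts of calls among the 89 Rpb2 peaks stayed at 0 under every alternative except DESeq2's Wald test, with 2 (3.81% of all Rpb2 peaks), and leaving out 1 library, with 0 to 9. Among the H3K27ac peaks the count stayed at 0 except on leaving out 1 library (0 to 4, where 1.74% of all peaks were called without the WT female and 3.87% without the WT male). Among the 6 gene sums it was 0 for Rpb2 in every fit, and for H3K27ac 0 except on leaving out 1 library (0 to 5). With the sex label as a replicate block 0 peaks and 0 sums were called. The correlation of the sexes' deviations between genotypes was -0.0078 for Rpb2 and -0.0099 for H3K27ac. Peaks with few reads entered it, so it cannot show whether the label pairs the pools. The block changed no call of these genes, while in the whole table it called 43 Rpb2 and 83 H3K27ac gene sums. Of 459 values of single peaks and sums under alternatives, 408 kept direction and side of the threshold, 15 became significant and 36 changed sign. The causes were not tested.

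With library totals the log2 difference turned to 0.26 for the *Syk* Rpb2 peak at -273 bp, 0.025 for that of *Plcg2* at 64 bp, 0.30 for that of *Inpp5d* at 89 bp and 0.17 for the *Trem2* Rpb2 sum. With loess offsets it was 0.060 for *Syk*, 0.046 for *Inpp5d* at 89 bp, -0.65 for the *Tyrobp* Rpb2 peak at -21008 bp, -0.0019 for the widest *Inpp5d* H3K27ac peak, -0.090 for the *Tyrobp* H3K27ac peak and -0.038 for its sum. With at least 10 reads in every library it was 0.057 for *Syk*, 0.087 for *Inpp5d* at 89 bp and -0.010 for the *Tyrobp* H3K27ac peak. With start-site peaks alone it was 0.049 for *Syk* and 0.079 for *Inpp5d*. For the *Tyrobp* H3K27ac peak, DESeq2's size factors gave -0.017, its Wald test -0.015 and the newer quasi-likelihood test -0.052. For its sum, DESeq2's size factors gave -0.00037 and the newer test -0.077.

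Leaving out 1 library in turn gave -0.11 to 0.47 for the *Trem2* Rpb2 peak at 1065 bp, -0.19 to 0.036 for *Syk* at -273 bp, -0.24 to 0.12 for *Inpp5d* at 89 bp, -0.15 to 0.99 for *Cd33* at 81 bp, -0.24 to 0.078 for the *Trem2* and -0.15 to 0.24 for the *Plcg2* Rpb2 sum. For H3K27ac it gave -0.38 to 0.59 for the *Tyrobp* peak, -0.046 to 0.57 for the widest *Inpp5d* peak, and -0.060 to 0.42, -0.42 to 0.67 and -0.090 to 0.60 for the sums of *Trem2*, *Tyrobp* and *Inpp5d*. Depth limits the intronic Rpb2 peaks: some held 0 to 7 reads in a WT library, where 3 reads correspond to 1.98 to 2.33 CPM.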
